A study of Bubalus bubalis with 12 samples.

Results

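The ruminal wall of 12 dairy buffaloes was examined for the RNA of B cells and plasma cells, the antibody-forming cells of the immune system. A set of 9 genes was followed, namely CD79A, CD79B, MS4A1, PAX5, FCER2, POU2AF1, MZB1, JCHAIN and TNFRSF17. They were found by gene name among the 34037 genes of the deposited table, and all 9 were present. The control group of 6 animals was fed a total mixed ration (TMR). The treated group of 6 animals was fed TMR in which green ryegrass made up about 30% of the diet. Both groups were Italian Mediterranean buffaloes of the same trial, with no genetic modification and no drug treatment, and the labels give no age of single animals. Each animal gave 1 stranded total RNA library from a frozen piece of rumen wall, which holds epithelium together with the connective tissue, muscle, vessels and immune cells beneath it. The comparison asks whether green feed went with a change of gene expression in the wall.

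As background, B cells recognise antigen through a surface immunoglobulin whose signal is carried by CD79A and CD79B. The transcription factor PAX5 keeps the cell in the B lineage, and MS4A1 (CD20) is a surface protein of mature B cells that is lost at the plasma cell stage. Plasma cells switch off PAX5 and MS4A1 and secrete antibody in large amounts. In mucosal tissue most of that antibody is polymeric immunoglobulin A, which is held together by the joining chain encoded by JCHAIN and carried across simple epithelia by the receptor encoded by PIGR.

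The values are FPKM, that is, counted fragments scaled by gene length and by the depth of the library, so that levels can be compared between genes. Reads were recovered from the FPKM, since within 1 library the value of a gene is a whole multiple of what 1 of its reads is worth there. The libraries held between 10531468 and 12948299 counted fragments. Markers of the labelled tissue were abundant, with KRT5, a keratin of the basal layer of squamous epithelium, at 451 to 2370 FPKM. KRT5 was lowest in control replicate 6 and treated replicate 6, with 10739 and 14322 reads. Of the 9 genes, 7 had a read in at least 1 animal, and 2 reached the study's threshold on normalized reads in at least 1 animal and were tested with the main filter. These were FCER2 and JCHAIN. FCER2 reached the threshold through treated replicate 2 alone, which held 45 reads, so the value that admitted FCER2 is also the highest value of the treated group.

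RNA of the defining B cell genes was close to the limit of detection, and JCHAIN was the one member of the set with a mean above 1 FPKM. All 9 genes together had 945 reads over the 12 animals. JCHAIN accounted for 77.4% of them and FCER2 for 16.3%. CD79A, CD79B, MS4A1, PAX5 and POU2AF1, the 5 genes that are most particular to the B lineage, had 40 reads in all, 26 in the control and 14 in the treated group. In single animals they had between 0 and 8 reads.

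CD79A encodes one of the signalling chains of the B cell receptor. In the control group it ranged from 0 to 0.545 FPKM with a median of 0.206, and in the treated group from 0.0693 to 0.282 FPKM with a median of 0.139. It had 34 reads in all, and the 2 groups overlapped over the whole treated range. CD79B, which encodes the partner chain, was listed at 0 in all 12 animals. POU2AF1, a coactivator of octamer-binding factors in B cells, was likewise listed at 0 in all 12 animals. A count of 0 over all animals allows up to 3 reads in the 145595511 counted fragments of the 12 libraries, and this limit covers counting error only. A listed 0 does not show that the RNA was absent, since reads lost in mapping or counting cannot be seen in this table. PAX5 had 1 read, in control replicate 2. MS4A1 had 5 reads, of which 1 was in control replicate 1 and 2 each in control replicates 4 and 6, and none was in the treated group.

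FCER2 encodes CD23, the low-affinity receptor for immunoglobulin E, which is carried by mature B cells and also by other cell types. It had reads in every animal. The control group ranged from 0.0843 to 0.443 FPKM with a median of 0.178, and the treated group from 0.163 to 1.11 FPKM with a median of 0.296. Treated replicates 1 and 2 were above every control animal, and the other 4 treated animals lay inside the control range.

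The plasma cell genes differed widely in level. MZB1 encodes an endoplasmic reticulum protein that helps assemble secreted immunoglobulin. It had 15 reads, with 0 to 0.350 FPKM in the control group (median 0.196) and 0 to 0.185 FPKM in the treated group (median 0). It was listed at 0 in 1 of 6 control animals and 4 of 6 treated animals. TNFRSF17 encodes BCMA, the receptor through which plasma cells receive survival signals. It had 5 reads, 1 each in control replicates 4 and 5 and 3 in treated replicate 6. In the RefSeq annotation of another buffalo assembly (NDDB_SH_1), TNFRSF17 overlaps other genes, GSPT1 among them, and MS4A1 overlaps an uncharacterized gene, so single reads of these 2 genes are uncertain.

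JCHAIN was measured in every animal. The control group ranged from 1.22 to 12.2 FPKM with a median of 3.37, and the treated group from 0.396 to 10.1 FPKM with a median of 1.85. The highest control value was in replicate 6 and the highest treated value in replicate 4. The lowest was in treated replicate 1, where 6 reads were counted. The highest animal was 30.9 times the lowest, whereas for FCER2 this ratio was 13.1.

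**Figure D1:**
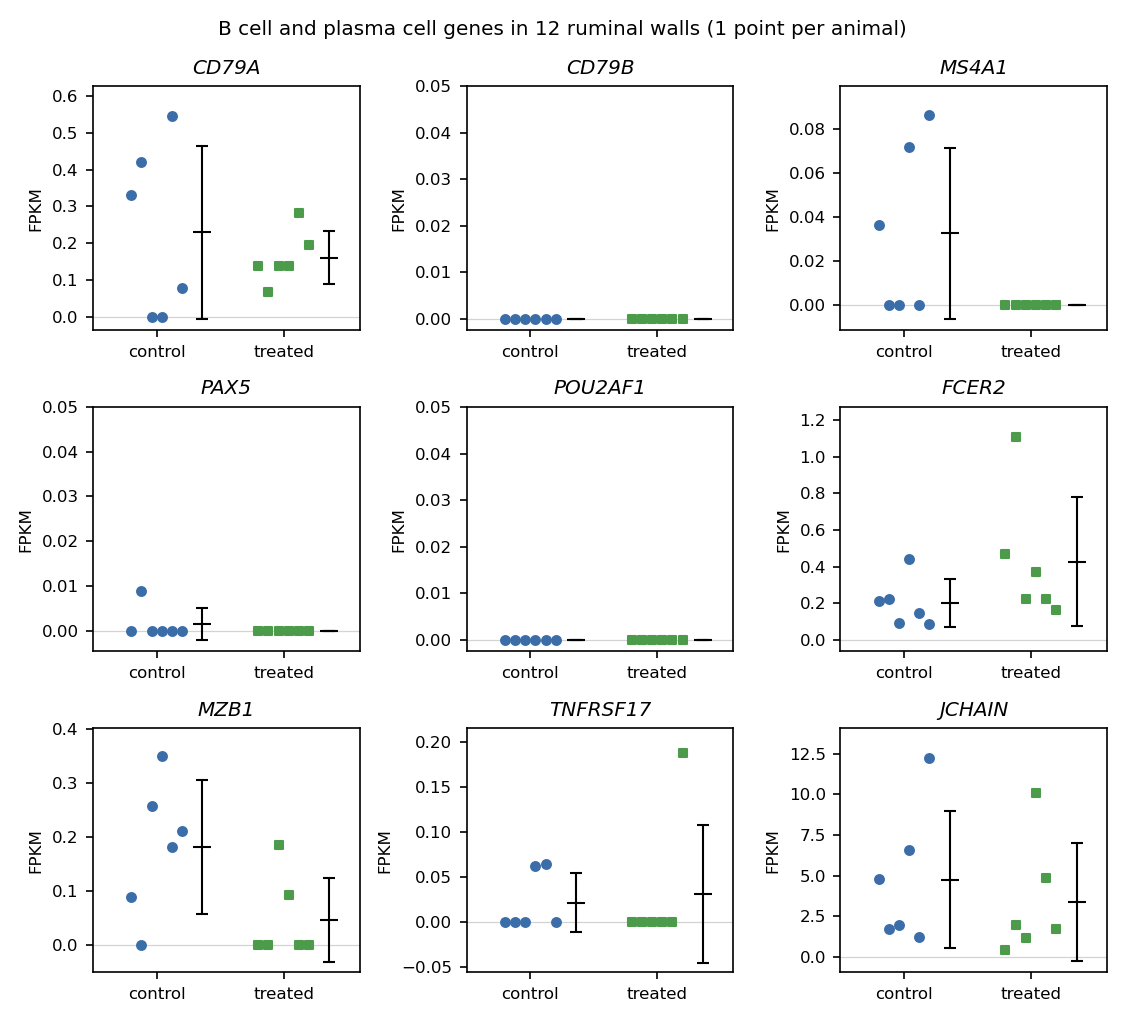
FPKM of the 9 genes in the control (circles) and treated (squares) animals, 1 point per animal in the order of the replicates, with the group mean and SD (n = 6) as a line and bar to the right. Each panel has its own vertical axis. CD79B and POU2AF1 lie at 0 in every animal, and JCHAIN ranges from 0.396 to 12.2 FPKM with both groups overlapping.

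In the order of the mean over 12 animals, JCHAIN was first with 4.06 FPKM, followed by FCER2 with 0.313, CD79A with 0.195, MZB1 with 0.114, TNFRSF17 with 0.0262, MS4A1 with 0.0162 and PAX5 with 0.000743 FPKM. JCHAIN exceeded FCER2 in 11 of 12 animals (two-sided exact sign-flip permutation test of the differences in FPKM, p = 0.000977, adjusted p = 0.00586 over 6 neighbouring pairs, n = 12 animals). None of the other 5 neighbouring pairs passed the test, with adjusted p-values from 0.164 to 0.75. The order and the pairs were taken from the same 12 animals, so these p-values are not an independent test of the order. The mean of JCHAIN was 20.8 times that of CD79A. Among the 22972 genes above 0 in at least 1 animal, 62.3% had a lower mean than JCHAIN, 35.4% a lower mean than FCER2 and 31.1% a lower mean than CD79A.

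The animals varied more in JCHAIN than counting alone gives. The variance of its reads over the mean was 57.4 in the control and 59.7 in the treated group, where counting error alone gives a value near 1. For FCER2 this quotient was 3.61 and 11.9, and for MZB1 0.923 and 1.41. At an equal relative spread between animals the quotient rises with the number of reads. It therefore cannot rank these genes by variation between animals, and values near 1 for MZB1 do not show that its animals were alike. Within groups, the SD of log2(FPKM + 0.01) was 1.46 for JCHAIN and 0.91 for FCER2, against a median of 0.36 over the 12642 genes tested.

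T cell genes were far higher than B cell genes in the same libraries. CD3D, CD3E and CD3G, which encode chains of the T cell receptor complex, had 5344 reads in all, from 218 to 621 per animal. CD3E exceeded CD79A in 12 of 12 animals, with a mean level 28.9 times as high (two-sided exact sign-flip permutation test, p = 0.000488, which is the smallest p-value this test can give). In the 10 animals with reads of CD79A the ratio of the levels ranged from 8.23 to 85.8. PTPRC, the phosphatase CD45 of all leukocytes, ranged from 5.04 to 13.4 FPKM, and CD14 of monocytes and macrophages from 8.87 to 32.5 FPKM. In bulk tissue, fewer cells of a type and less RNA per cell cannot be told apart.

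**Figure D2:**
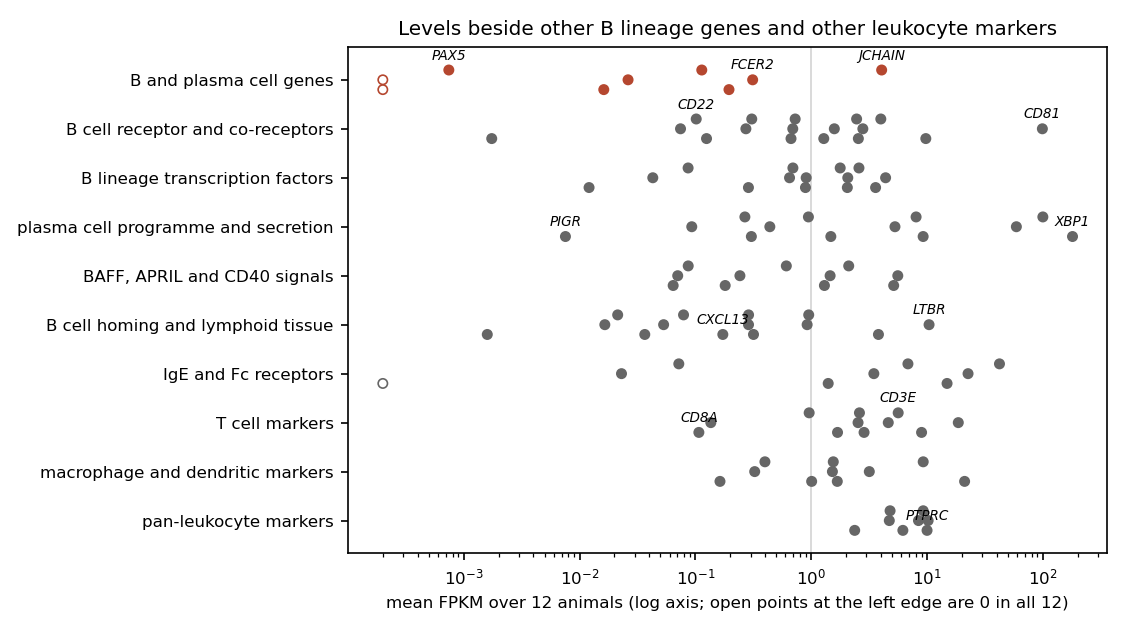
Mean FPKM over the 12 animals (horizontal log axis) for the 9 B and plasma cell genes (top row), for lists of other B lineage genes and for lists of T cell, macrophage and pan-leukocyte markers, 1 point per gene. Open points at the left edge are genes at 0 in all 12 animals, such as CD79B and POU2AF1. JCHAIN lies among the pan-leukocyte and T cell markers, while the other 8 genes lie below 1 FPKM.

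Neither FCER2 nor JCHAIN passed the test between the diets, and no gene of the table did so after adjustment. The study used edgeR on counts of the same animals and listed FCER2 as higher with green feed at a nominal p-value below 0.05. It too found no gene after adjustment. The fits here use FPKM and another test. In limma with Benjamini-Hochberg adjustment over 12642 genes, the smallest adjusted p-value was 0.9997. At a nominal p-value below 0.05, 1.24% of the genes tested were called, 100 of them higher and 57 lower with green feed, and 0.451% of the genes tested were called lower. Of the 2 members tested 0 were called. The exact permutation test gave p below 0.05 for 1.73% of the same genes, and for 0 of these 2 members.

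FCER2 had a mean of 0.200 ± 0.133 FPKM in the control and 0.425 ± 0.352 FPKM in the treated group (SD, n = 6 each). The log2 fold change of treated against control was 0.96 with an SE of 0.53, on the log2(FPKM + 0.01) scale (limma nominal p = 0.0923, adjusted p = 0.9997, two-sided exact permutation p = 0.106). FCER2 entered the main fit through treated replicate 2 alone, so its p-value there is not independent of the filter. Without this filter, in the fit of every gene above 0, the limma nominal p-value was 0.114. For the exact test the smallest p-value that 6 against 6 animals allow is 0.00216. Of the treated animals, 5 of 6 were above the control median. Treated replicate 2 held 29.2% of all FCER2 reads, and its omission left a log2 fold change of 0.63 (exact permutation p = 0.210). Without control replicate 4, the highest control animal, it was 1.23 with an exact permutation p of 0.0325, so that 1 control animal decided on which side of 0.05 FCER2 fell.

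JCHAIN had a mean of 4.75 ± 4.22 FPKM in the control and 3.37 ± 3.62 FPKM in the treated group (SD, n = 6 each). Its log2 fold change was -0.72 with an SE of 0.73 (limma nominal p = 0.341, adjusted p = 0.9997, exact permutation p = 0.403). The difference was smaller than the SD within the groups. Treated replicates 1 and 3 were below every control animal, and 4 of 6 treated animals were below the control median. Without treated replicate 4 the log2 fold change was -1.17, without control replicate 6 it was -0.35 and without treated replicate 1 it was -0.24.

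The 5 members with reads that missed the filter were compared in a fit of every gene above 0, in which 2.45% of 22972 genes had a nominal p-value below 0.05 and 1.27% were called lower in the treated group. MZB1 and MS4A1 were called lower there, and neither passed the exact permutation test, by which 1.96% of the genes above 0 had p below 0.05. For MZB1 the log2 fold change was -2.38 with an SE of 1.04 (limma nominal p = 0.0387, adjusted p = 0.9998, exact permutation p = 0.0693). The group means were 0.181 ± 0.124 and 0.0461 ± 0.0772 FPKM (SD, n = 6 each), from 12 control and 3 treated reads. All 6 treated animals were below the control median. The ratio of control to treated reads, scaled for depth, was 3.99 with an exact 95% interval of 1.08 to 22.0 for counting error.

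For MS4A1 the log2 fold change was -1.42 with an SE of 0.65 (limma nominal p = 0.0460, adjusted p = 0.9998, exact permutation p = 0.182), and its 5 reads in 3 control animals against none in the treated group carry this value. CD79A had 20 control and 14 treated reads and a log2 fold change of 0.74 (exact permutation p = 0.496), although its mean was lower in the treated group, at 0.161 ± 0.0718 against 0.230 ± 0.234 FPKM (SD, n = 6 each). The sign of the CD79A difference therefore depends on how the 2 control animals at 0 are weighted. TNFRSF17 and PAX5, with 5 reads and 1 read, had exact permutation p-values of 1.

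The levels of smooth muscle and fibroblast markers were set beside these genes. Over 9 smooth muscle genes the summed level was 28.5 to 50.4 FPKM in the control and 15.4 to 40.1 FPKM in the treated group. Of the 6 smooth muscle genes tested 1 was lower, the filament gene DES, and the median log2 fold change was -0.75. In the fit of every gene above 0, ACTG2 and CNN1 were called lower too. Over 7 fibroblast genes the sums were 40.8 to 253 FPKM and 16.6 to 169 FPKM, with 0 of 7 called and a median log2 fold change of -0.73. The median over all genes tested was 0.0053. Of all genes, 0.451% were called lower with the main filter and 1.27% in the fit of every gene above 0. Every one of the 16 markers had reads, and none of the defining ones was at 0 over all animals.

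The mean log2 level of these 16 stromal markers was between 1.45 and 2.60 in the control animals, and it was -0.08 and -0.03 in treated replicates 1 and 2. The other 4 treated animals were at 1.29 to 2.26. Treated replicates 1 and 2 were also the animals with the highest FCER2. Over the 12 animals, FCER2 had a Pearson correlation of -0.75 (Spearman -0.64) with the stromal mean, and -0.42 without the 2 animals farthest from its median. JCHAIN had a correlation of 0.66 (Spearman 0.63), and 0.53 over the 10 remaining animals. The points share the libraries and the slaughter of the trial. With the stromal mean as a covariate in limma across every gene above 0, the log2 fold change of FCER2 was 0.25 in place of 0.96. It was -1.35 in place of -2.38 for MZB1, and -1.32 in place of -1.42 for MS4A1. Both were then no longer called, and the log2 fold change of JCHAIN changed sign to 0.39. With the mean log2 level of the pan-leukocyte markers as covariate instead, it was 1.01 for FCER2 and -0.60 for JCHAIN. For MZB1 and MS4A1 it was -2.40 and -1.32 with that covariate, and both were still called lower. The part of tissue composition in these differences was not tested beyond these values.

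**Figure D3:**
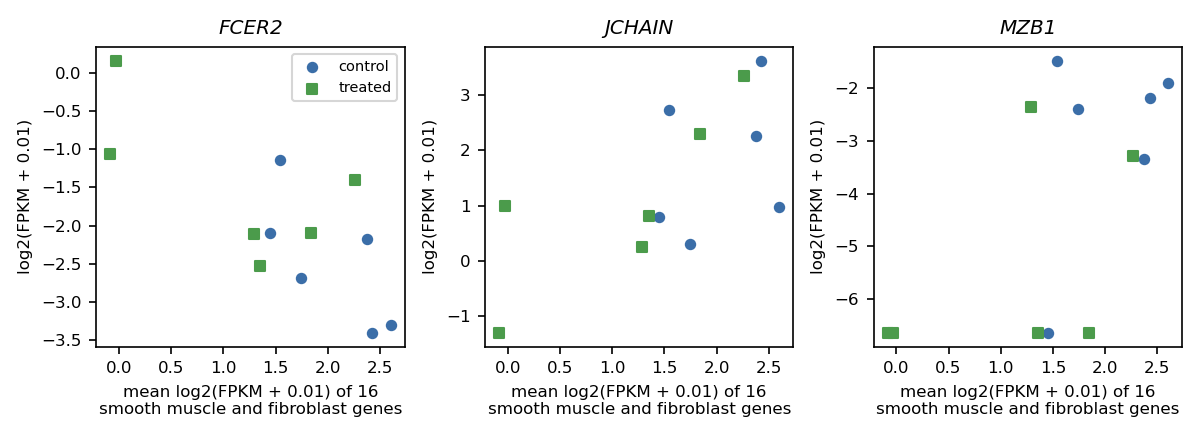
Level of FCER2, JCHAIN and MZB1 on the log2(FPKM + 0.01) scale (vertical) against the mean log2 level of 16 smooth muscle and fibroblast genes (horizontal), 1 point per animal, with control animals as circles and treated animals as squares. Treated replicates 1 and 2 stand at the left, near 0 on the horizontal axis, and have the highest FCER2 of all animals, while JCHAIN and MZB1 are not high there.

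The other genes of the B lineage were grouped in 6 lists with 79 genes, of which 78 were in the table and 77 above 0. With the main filter 42 were tested. None was called at a nominal p-value below 0.05, where 1.24% of all genes tested were called, and the median log2 fold change was -0.02. In the fit of every gene above 0, 0 of these 77 were higher and 2 lower, both of the homing list. Over all 22972 genes of that fit 1.27% were called lower, so 2 calls are no result about the list.

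Of the receptor and co-receptor genes, 11 of 17 in the table were tested and 0 called. CD22, a co-receptor that tunes the B cell receptor, had 87 reads over all animals. Its levels were 0.0998 ± 0.0832 FPKM in the control and 0.104 ± 0.0675 FPKM in the treated group (SD, n = 6 each). CR2, the complement receptor CD21 of B cells and follicular dendritic cells, had 62 control and 33 treated reads and was at 0 in 4 animals. BLK, a kinase of B cell receptor signalling that some T cells also make, was higher, with 760 reads and levels of 2.61 ± 0.794 FPKM in the control and 2.33 ± 1.39 FPKM in the treated group (SD, n = 6 each). It had a correlation of 0.06 with JCHAIN over the 12 animals and was named after its values were seen. The highest genes of the list were CD81, a tetraspanin found on most cell types, at 101 and 97.1 FPKM in the control and treated group, PLCG2, a phospholipase of antigen receptor signalling, at 9.54 and 10.01 FPKM, and PIK3AP1, an adaptor of the same signalling, at 3.91 and 4.09 FPKM. These 3 genes are also made by cells other than B cells.

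Of the transcription factors, 11 of 14 were tested and 0 called. The highest were BCL6, the repressor of germinal centre B cells, at 4.37 and 4.42 FPKM, TCF3, an E protein needed for early B cell development, at 3.51 and 3.70 FPKM, and BCL11A at 2.52 and 2.65 FPKM. SPIB, which is more particular to B cells and plasmacytoid dendritic cells, had 6 reads.

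The plasma cell programme showed a similar split. XBP1, the transcription factor that expands the secretory apparatus, was at 182 and 179 FPKM, SDC1, which encodes the plasma cell marker CD138 and is also abundant in squamous epithelium, at 100.3 and 100.2 FPKM, and TXNDC5, a folding enzyme of the endoplasmic reticulum, at 58.4 and 60.02 FPKM. Of this list 8 of 13 were tested and 0 called. Across the 12 animals SDC1 had a correlation of -0.54 with JCHAIN and -0.05 without the 2 animals farthest from its median. PIGR, which carries JCHAIN-bound antibody across epithelium, had 4 reads in all, 3 in treated replicate 1 and 1 in treated replicate 4.

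Among the survival signals, 4 of 11 genes were tested and 0 called. The ligands of TNFRSF17 were low, with TNFSF13 (APRIL) at 0.611 FPKM and TNFSF13B (BAFF) at 0.243 FPKM on average over 12 animals. The other receptors of these ligands, TNFRSF13B and TNFRSF13C, had 26 and 11 reads. The highest of the list were NFKB2 at 5.77 and 5.43 FPKM, TRAF3 at 4.93 and 5.39 FPKM and MAP3K14 at 2.03 and 2.19 FPKM, all of the noncanonical NF-kB pathway that many cell types use. Among the genes of IgE and Fc receptors, 5 of 9 were tested and 0 called. The highest were IL13RA1 at 43.4 and 41.2 FPKM, ADAM10, the protease that sheds CD23 from the cell surface, at 23.7 and 21.6 FPKM, and FCGRT, the neonatal Fc receptor, at 14.8 and 15.01 FPKM. FCAMR, a receptor of immunoglobulin A and M, was listed at 0 in all 12 animals.

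Of the homing and lymphoid tissue genes, 3 of 14 were tested and 0 called. The highest were LTBR at 10.6 and 10.3 FPKM, ITGB7, an integrin chain of gut-homing lymphocytes, at 3.97 and 3.65 FPKM, and CCL21, a chemokine of lymphoid tissue, at 1.11 and 0.800 FPKM. CXCL13, the chemokine that draws B cells into follicles, had 25 control and 3 treated reads. It had reads in 5 of 6 control animals and 1 of 6 treated animals. Its log2 fold change in the fit of every gene above 0 was -3.20 (limma nominal p = 0.0122, adjusted p = 0.9998, exact permutation p = 0.0541). With the stromal covariate the log2 fold change was -3.62 and with the pan-leukocyte covariate -3.06, and CXCL13 stayed called lower with both. CXCL13 missed the main filter and rests on few reads. When 1 animal was left out, the exact permutation p of CXCL13 was 0.0108 without control replicate 2, the control animal at 0, and 0.0152 without treated replicate 2, the treated animal with reads. The other omissions gave 0.0541 to 0.0693.

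Markers of other cell types were compared in the same way. Of the T cell markers, 8 of 11 were tested and 0 called. Likewise 0 were called among 6 tested macrophage and dendritic cell markers, 8 pan-leukocyte markers, 1 follicular dendritic cell marker, 2 mast cell markers, 7 squamous epithelium markers and 7 endothelial markers. In the fit of every gene above 0, 1 of 4 follicular dendritic cell markers was called lower, which is CXCL13 again, and 0 in the other lists of this paragraph. Over all genes of that fit 1.27% were called lower.

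Immunoglobulin genes themselves were sought through the RefSeq annotation of NDDB_SH_1, which marks antigen receptor genes as V segments or C regions without naming the chain. Of 292 such entries 156 were matched to the table by gene ID, and 97 had reads. The 7 entries with at least 100 reads were examined after their values were seen. Their reads may be shared with near-identical copies, so their levels are uncertain.

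LOC102404120 is a C region that is followed in the annotation by TMEM121 and TEDC1, and TMEM121 lies beside the immunoglobulin heavy chain locus in other mammals. In the control group it ranged from 0.919 to 7.99 FPKM with a median of 2.46, and in the treated group from 0.354 to 12.9 FPKM with a median of 0.820. Its highest animals were treated replicate 4 and control replicate 6, which were also the highest in JCHAIN. Over 12 animals the correlation with JCHAIN was 0.78 (Spearman 0.71), and 0.62 without the 2 animals farthest from the median. LOC102398442 is a V segment near PRAME and ZNF280B, which lie by the lambda light chain locus in other mammals. It ranged from 1.81 to 10.2 FPKM in the control group (median 2.62) and from 0 to 13.9 FPKM in the treated group (median 0.611). The same 2 animals were highest, and the correlation with JCHAIN was 0.74 (Spearman 0.86), and 0.79 over the 10 remaining animals. Treated replicate 4 and control replicate 6 were also the highest for LOC102404635, with 11.9 and 9.58 FPKM, and for LOC102415345, with 5.73 and 7.23 FPKM, which lie near genes that flank T cell receptor loci in other mammals.

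A second C region beside TMEM121, LOC102395763, had a correlation of 0.25 with JCHAIN. The C regions LOC102401260 and LOC102402235 lie between MGAM and EPHB6, and EPHB6 lies by the T cell receptor beta locus in other mammals. They had correlations of -0.06 and 0.33 with JCHAIN, and of 0.46 and 0.60 with CD3E. The correlation with CD3E was 0.64 for LOC102398442 and 0.43 for LOC102404120, so the correlations did not separate the entries by chain. Between the diets, the log2 fold change was -0.99 for LOC102404120 (exact permutation p = 0.325) and -2.60 for LOC102398442 (exact permutation p = 0.106). Neither passed the exact test, and 4 of 6 treated animals were below every control animal for LOC102398442. In the fit of every gene above 0, LOC102398442 had a limma nominal p-value of 0.0696 (adjusted p = 0.9998). With voom on the recovered reads its nominal p-value was 0.0438, so its side of 0.05 depends on the method. For LOC102404120 the nominal p-values of limma and voom were 0.267 and 0.247.

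**Figure D4:**
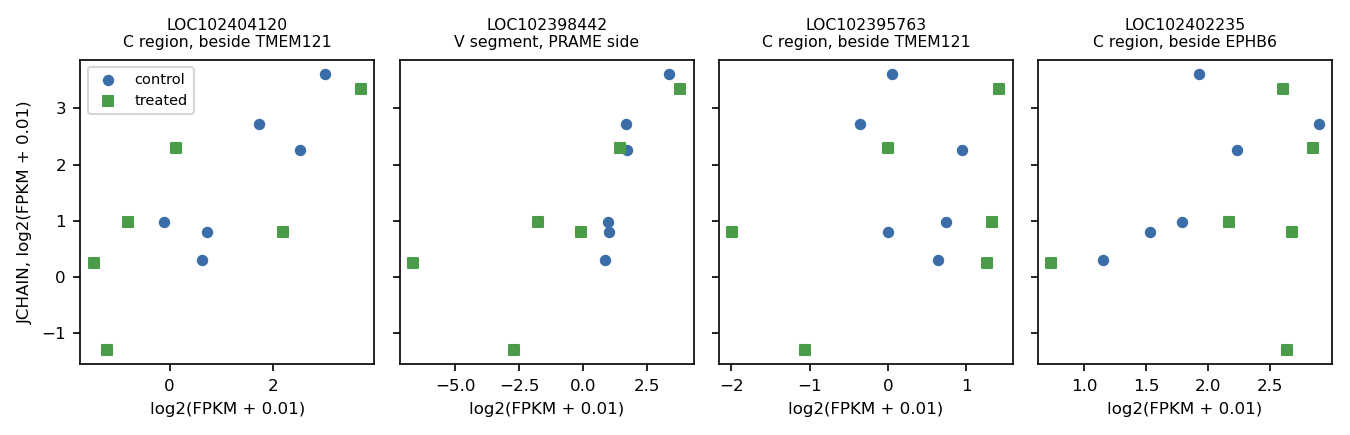
JCHAIN (vertical) against 4 antigen receptor entries (horizontal), both as log2(FPKM + 0.01), 1 point per animal, with control animals as circles and treated animals as squares. The highest animals of JCHAIN, control replicate 6 and treated replicate 4, are also the highest of LOC102404120 and LOC102398442. The same holds for LOC102404635 and LOC102415345, which are not shown. LOC102395763 is highest in treated replicate 4 but not high in control replicate 6, and LOC102402235 is highest in neither. Their correlations with JCHAIN are 0.25 and 0.33 over 12 animals.

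The genes most like JCHAIN over the 12 animals, by the correlation of log2(FPKM + 0.01) among the genes tested, were ERAP2 (0.97), GUCY1A1 (0.95), PTGFR (0.93), FAM171A1 (0.90) and LOC102397029 (0.90). ERAP2 encodes an aminopeptidase that trims peptides for antigen presentation. GUCY1A1, a subunit of the nitric oxide receptor, and PTGFR, a prostaglandin receptor, are known from smooth muscle. Without the 2 animals farthest from the median of ERAP2, its correlation with JCHAIN was 0.95. The correlation of JCHAIN with LUM, a proteoglycan gene of fibroblasts, was 0.73, and with PTPRC it was 0.48. The 5 genes most like MS4A1 and the 5 most like the standardized mean of the 7 members with reads had correlations of 0.82 to 0.86 and 0.80 to 0.82, and were led by FGFR1OP2 and COL27A1. These rest on members with few reads. Among the members, JCHAIN had a correlation of 0.39 with MZB1 and of -0.17 with FCER2.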

How the data were processed

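Total RNA of the ruminal wall of 12 animals (6 control, 6 treated, 1 library each) was sequenced in pairs. The authors trimmed reads with Trimmomatic 0.39, mapped them to UOA_WB_1 with STAR 2.5.2b and obtained strand-specific gene counts from featureCounts 2.0.0. The authors deposited FPKM values. The tool and gene lengths behind the FPKM are not given in the sources used here. The table holds 16 columns, of which 4 match no sample and were not used. Groups came from the labels.

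From the FPKM, reads were recovered as the fewest whole reads that give every value of a gene within 0.001 reads and a whole gene length. Whole reads were obtained for all 22972 genes above 0, and 11065 genes were at 0 in all animals. The share with a whole length, 99.99%, was taken only over genes with more than a few reads. That check left out MZB1, MS4A1, TNFRSF17 and PAX5. For a gene with reads in a single animal, such as PAX5, whole reads are always found, so their recovery is no check there. Counted fragments were between 10531468 and 12948299, which sets the precision. Intervals and floors cover counting error only.

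limma 3.58.1 (R 4.3.3, trended eBayes) was run on log2(FPKM + 0.01). The main filter kept 12642 genes, those at or above the study's threshold on TMM-normalized reads in at least 1 animal. The fit of every gene above 0 left this filter out. The exact permutation test was two-sided over 924 assignments of the animals. The adjusted p-values are Benjamini-Hochberg values over all genes of the fit. Tests were checked on simulated data. Python 3.11.15 with numpy 2.4.6, scipy 1.17.1, pandas 2.3.3 and matplotlib 3.10.9 was used otherwise.

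Genes named beyond the 9 members were those of the 6 B lineage lists with a nominal p-value below 0.05, the 3 highest genes of each such list, and the 5 genes most like JCHAIN, MS4A1 and the members' mean. Further genes were picked with their values in view. Some genes of the lists are counted but not reported here by name. The members and the 16 gene lists were chosen with earlier results of these data known.

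Alternatives were pseudocounts of 0.1 and 1, other filters, TMM and median-ratio scaling, robust eBayes, voom on the recovered reads, an exact rank-sum test, the replicate number as a block, a stromal or pan-leukocyte covariate and leaving out each animal. The difference of mean FPKM was added after seeing the data. RefSeq gene names of NDDB_SH_1 were matched by gene ID for 9 of 9 members, and no sequence is shown.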

Additional observations from a re-analysis of the deposited data

Results flagged for a closer look

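In groups of 6 animals, Dixon's test marks a highest or lowest animal with a large gap to the nearest other animal. The gap must take up more of the range of the group than chance gives in 95% of groups of normally distributed values. The members and the 2 antigen receptor entries LOC102404120 and LOC102398442 gave 22 groups, of which 16 had any reads and 6 were marked. For normally distributed values chance marks about 1 in 20 groups. That rate need not hold for FPKM from few reads, so the number of marks cannot be set against it. Groups with a single animal above 0 are always marked. The 2 antigen receptor entries were examined after their values were seen, and the other antigen receptor entries were not included here. FCER2 was high in treated replicate 2, with 1.11 FPKM from 45 reads. LOC102404120 was high in treated replicate 4, with 12.9 FPKM from 183 reads. LOC102398442 was high in control replicate 6 with 10.2 FPKM and in treated replicate 4 with 13.9 FPKM, from 63 and 98 reads. PAX5 in control replicate 2 with 0.00892 FPKM and TNFRSF17 in treated replicate 6 with 0.187 FPKM rest on 1 and 3 reads, in groups where the other 5 animals are at 0.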

How the results depend on the processing

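The comparison of the diets gave 157 genes at a nominal p-value below 0.05. It gave 562 over every gene above 0, 346 over genes with a mean of at least 0.1 FPKM and 345 with the stromal covariate, and from 142 to 325 when 1 animal was left out. The highest of these was without treated replicate 6. Of the members, 0 of those tested were called, 2 over every gene above 0 (MZB1 and MS4A1), and from 0 to 1 when 1 animal was left out, where the 1 was FCER2 without control replicate 4. The median log2 fold change of the members tested, 0.12, lies midway between 2 genes of opposite direction, FCER2 (0.96) and JCHAIN (-0.72). It ranged from -0.12 to 0.35 when 1 animal was left out. With a pseudocount of 1 it was -0.11, and in the rank-sum comparison -0.02. Over every gene above 0 the median was -0.24, but there it covers 7 members and is not the same quantity. The replicate numbers come from the sample descriptions, and some titles carry another number, such as 2 for treated replicate 1. Pairs by replicate number are therefore not pairs by title number. Animals of the same replicate number are different animals. The correlation of their deviations averaged 0.21, over 0.1 in 4 of 6 pairs, with 8 of 12 animals most like their own replicate number. With the replicate block 322 genes were called and 0 of the 2 members tested. In the block fit of every gene above 0, MS4A1 had a nominal p-value of 0.0543 and MZB1 one of 0.0142, and the exact p-value of CXCL13 over the pairs was 0.156. The difference of CD79A (0.74) was -0.063 with a pseudocount of 1 and -0.23 in the rank-sum comparison, and the mean FPKM differed by -0.0687. That of JCHAIN was 0.39 with the stromal covariate. That of TNFRSF17 (-0.24) was 0.017 and 0.012 with pseudocounts of 0.1 and 1, the mean FPKM differed by 0.00998, and leaving out 1 animal gave -0.96 to 0.15. No other member changed direction under the alternatives run, and PAX5 had no reads left without control replicate 2. MZB1 had an exact permutation p-value below 0.05 without control replicate 2, treated replicate 3 or treated replicate 4, with a range from 0.0238 to 0.134 over the animals left out, and a nominal p-value of 0.0359 in voom. With 3 reads in the treated group its size is not fixed by these data. Depth limits every member, though JCHAIN the least. FCER2 had only 3 to 19 reads in each control animal, and JCHAIN had 6 reads in treated replicate 1.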

Other observations

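FCER2 followed the level of HGSNAT, a lysosomal acetyltransferase gene, most closely among the genes tested, with a Pearson correlation of 0.93 and a Spearman correlation of 0.92 over 12 animals, and 0.90 without the 2 animals farthest from the median of HGSNAT. It was followed by MED4 (0.89), POMGNT2 (0.88), RNF41 (0.86) and TRAF3 (0.83). These genes were searched after the values of FCER2 were seen and were not tested.

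The 2 antigen receptor entries with the most reads, LOC102415345 and LOC102402235, lay near genes that flank T cell receptor loci in other mammals. LOC102415345, a C region between SALL2 and DAD1, had 1898 reads over the 12 animals, and LOC102402235 had 862, against 576 for LOC102404120. It ranged from 0.966 to 7.23 FPKM and had a correlation of 0.57 with CD3E and of 0.31 with JCHAIN. DAD1 lies by the T cell receptor alpha locus in other mammals. LOC102404635, a V segment near AMPH, which lies by the T cell receptor gamma locus in other mammals, had 262 reads, the fewest of the 7, and a correlation of 0.46 with JCHAIN, and of -0.17 without the 2 animals farthest from its median.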
